A study of Mus musculus with 30 samples.

Results

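The prostaglandin and leukotriene genes described here are the 9 genes Ptgs1, Ptgs2, Ptges, Hpgds, Ptger2, Ptger4, Alox5, Alox5ap and Ltc4s, found by gene name among the 46603 genes of the deposited count table. Each name matched 1 row, and all 9 had enough reads to be tested in every comparison. Eicosanoids are short-lived signalling lipids made from arachidonic acid that phospholipases release from membranes. Cyclooxygenases turn arachidonic acid into prostaglandin H2, from which terminal synthases make prostaglandin E2 or prostaglandin D2. In a separate branch, 5-lipoxygenase and its membrane partner FLAP make leukotriene A4, the source of leukotriene B4 and of the cysteinyl leukotrienes. In tumours, macrophages are a known source of prostaglandin E2, which dampens T cell and natural killer cell activity.

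The cells were macrophages sorted from tumours grown under the skin of wild-type C57BL/6 mice from 3LL-R, a Lewis lung carcinoma line. They were parted by surface MHC class II into MHC-IIlo and MHC-IIhi cells, and 5 libraries represent each of 6 groups. The groups are lactate MHC-IIlo and lactate MHC-IIhi, of which 250000 cells were cultured for 24 h with 20 mM sodium L-lactate, no-lactate MHC-IIlo and no-lactate MHC-IIhi, of which 250000 cells were cultured for 24 h without it, and fresh MHC-IIlo and fresh MHC-IIhi, of which 30000 cells were lysed straight after the sort. The design asks how the subsets differ and how lactate changes each of them. All fresh groups had 30000 cells and all cultured groups 250000. In comparisons of cultured with fresh cells, culture and cell number therefore cannot be told apart, and a change with culture below means a difference between those groups. The labels call the samples biological replicates and do not say whether a replicate is 1 mouse or a pool, so p-values measure the spread between these samples. Cultured libraries are named by the number in the column header, which is not the number in the sample label.

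Total counts per library were 16913250 to 31481548. All 9 macrophage markers (Adgre1, Csf1r, Cd68, Mertk, Fcgr1, Itgam, C1qa, C1qb and Cd14) averaged above 1 CPM (counts scaled to the library size) in each of the 6 groups, and their summed level was 3276 to 14612 CPM. Lactate MHC-IIlo 5 stood apart from its group, with a root mean square log2 distance of 0.763 from the median of the other 4 libraries, against at most 0.592 for any other library. It also had the lowest macrophage marker sum, and results that rest on it are given with and without it. In bulk RNA, fewer cells of a type and less RNA per cell cannot be told apart, which holds for every level below. Levels are CPM on library sizes scaled by TMM, given as mean ± SD with n = 5 libraries, unless a level is said to be per length.

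Promoter windows from RefSeq (GRCm38.p6) covered 250 bases before and 50 after the annotated start for 8 of the 9 genes. The 4 windows printed are those of the genes on which the subset, culture and lactate results turn. They are those of Ptgs2 at chr1:150099781-150100080 on the plus strand, Ptges at chr2:30903248-30903547 on the minus strand, Hpgds at chr6:65144681-65144980 on the minus strand and Alox5 at chr6:116461129-116461428 on the minus strand, each written 5′ to 3′ along the gene. Capitals mark every match, on either strand, to 7 motifs: the C/EBP-type string TTNNGNAA, the cyclic AMP response element core TGACG, the E-box CACGTG, the GC box GGGCGG, the CCAAT box, the AP-1 string TGANTCA and the TATA box TATAAA. None of the 4 windows matched the CCAAT box, the AP-1 string or the TATA box. For Ptges and Hpgds the RefSeq start is not the start of the gene in the count table. The Ptges window lies wholly inside the counted gene, which spans chr2:30889471-30929863.
Ptgs2: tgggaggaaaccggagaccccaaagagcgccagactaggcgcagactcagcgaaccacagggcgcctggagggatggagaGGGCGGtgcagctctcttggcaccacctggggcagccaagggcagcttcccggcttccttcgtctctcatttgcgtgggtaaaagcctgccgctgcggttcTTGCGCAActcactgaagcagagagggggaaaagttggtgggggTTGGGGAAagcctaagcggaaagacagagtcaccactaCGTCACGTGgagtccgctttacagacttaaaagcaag
Ptges: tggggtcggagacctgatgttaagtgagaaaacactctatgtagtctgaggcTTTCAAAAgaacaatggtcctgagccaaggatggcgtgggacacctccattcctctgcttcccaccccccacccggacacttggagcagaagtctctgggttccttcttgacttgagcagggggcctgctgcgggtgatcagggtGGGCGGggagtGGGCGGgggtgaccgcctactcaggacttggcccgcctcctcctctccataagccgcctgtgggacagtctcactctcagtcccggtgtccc
Hpgds: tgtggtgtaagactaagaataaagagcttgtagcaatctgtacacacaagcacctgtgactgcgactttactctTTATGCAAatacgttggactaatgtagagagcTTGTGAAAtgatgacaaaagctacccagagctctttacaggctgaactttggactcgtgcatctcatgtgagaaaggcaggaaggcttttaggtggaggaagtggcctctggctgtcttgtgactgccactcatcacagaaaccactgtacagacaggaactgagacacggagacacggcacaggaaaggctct
Alox5: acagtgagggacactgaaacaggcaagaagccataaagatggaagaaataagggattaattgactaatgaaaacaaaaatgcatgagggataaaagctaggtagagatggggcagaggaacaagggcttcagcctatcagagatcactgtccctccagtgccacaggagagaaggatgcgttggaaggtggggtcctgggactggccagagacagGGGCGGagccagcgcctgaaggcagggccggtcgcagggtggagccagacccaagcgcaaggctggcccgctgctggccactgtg

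Ptgs2 held a GC box 170 bases before its start, C/EBP-type matches 69 and 25 bases before it, and, 14 bases after it, the reverse strand of TGACG overlapping an E-box that begins at base 17. Ptges held 2 GC boxes, 53 and 42 bases before its start, and a C/EBP-type match at 198 bases before. Alox5 held a GC box 35 bases before its start, and Hpgds held C/EBP-type matches 176 and 144 bases before. Such short strings are common. Over all 32851 windows, 40.7% held the C/EBP-type string, 35.7% a GC box, 20.8% TGACG and 7.15% the E-box, while 37.4% held CCAAT, 13.6% TATAAA and 7.81% the AP-1 string. The matches are a description of letters and were not linked to the expression data.

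Most of the 9 genes changed with culture, 1 to 6 differed between the subsets, depending on the culture condition and the fit, and 1 was called for lactate, Ptges in MHC-IIlo cells. A gene was called when its edgeR quasi-likelihood p, adjusted by Benjamini-Hochberg over all genes tested, was under 0.05. With lactate, 2 members were higher and 2 lower in MHC-IIlo than in MHC-IIhi cells, where 22.4% of all tested genes were called (9.13% higher and 13.3% lower). Without lactate, 1 was higher and 3 were lower, against 20.8% of genes called (9.2% higher and 11.6% lower). When fresh, 1 was higher and 0 were lower, against 29.2% called (14% higher and 15.2% lower). With the replicate number as a block, 5 members were called between the fresh subsets, as were 5004 of 12787 genes. With lactate against without it, 1 member was higher in MHC-IIlo cells, where 1.49% of genes were called (0.905% higher and 0.581% lower). A block on the header number gave 2 members called there, as were 1111 of 13593 genes. In MHC-IIhi cells 0 members were called for lactate, where 0.25% of genes were (0.206% higher and 0.0441% lower). Culture without lactate against fresh gave 1 member higher and 7 lower in MHC-IIlo cells, where 57.5% of genes were called (27.6% higher and 29.9% lower). In MHC-IIhi cells it gave 2 higher and 6 lower, where 62% were called (31.6% higher and 30.4% lower). The no-lactate libraries enter both the lactate and the culture comparisons, and those values are therefore not independent.

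**Figure D1:**
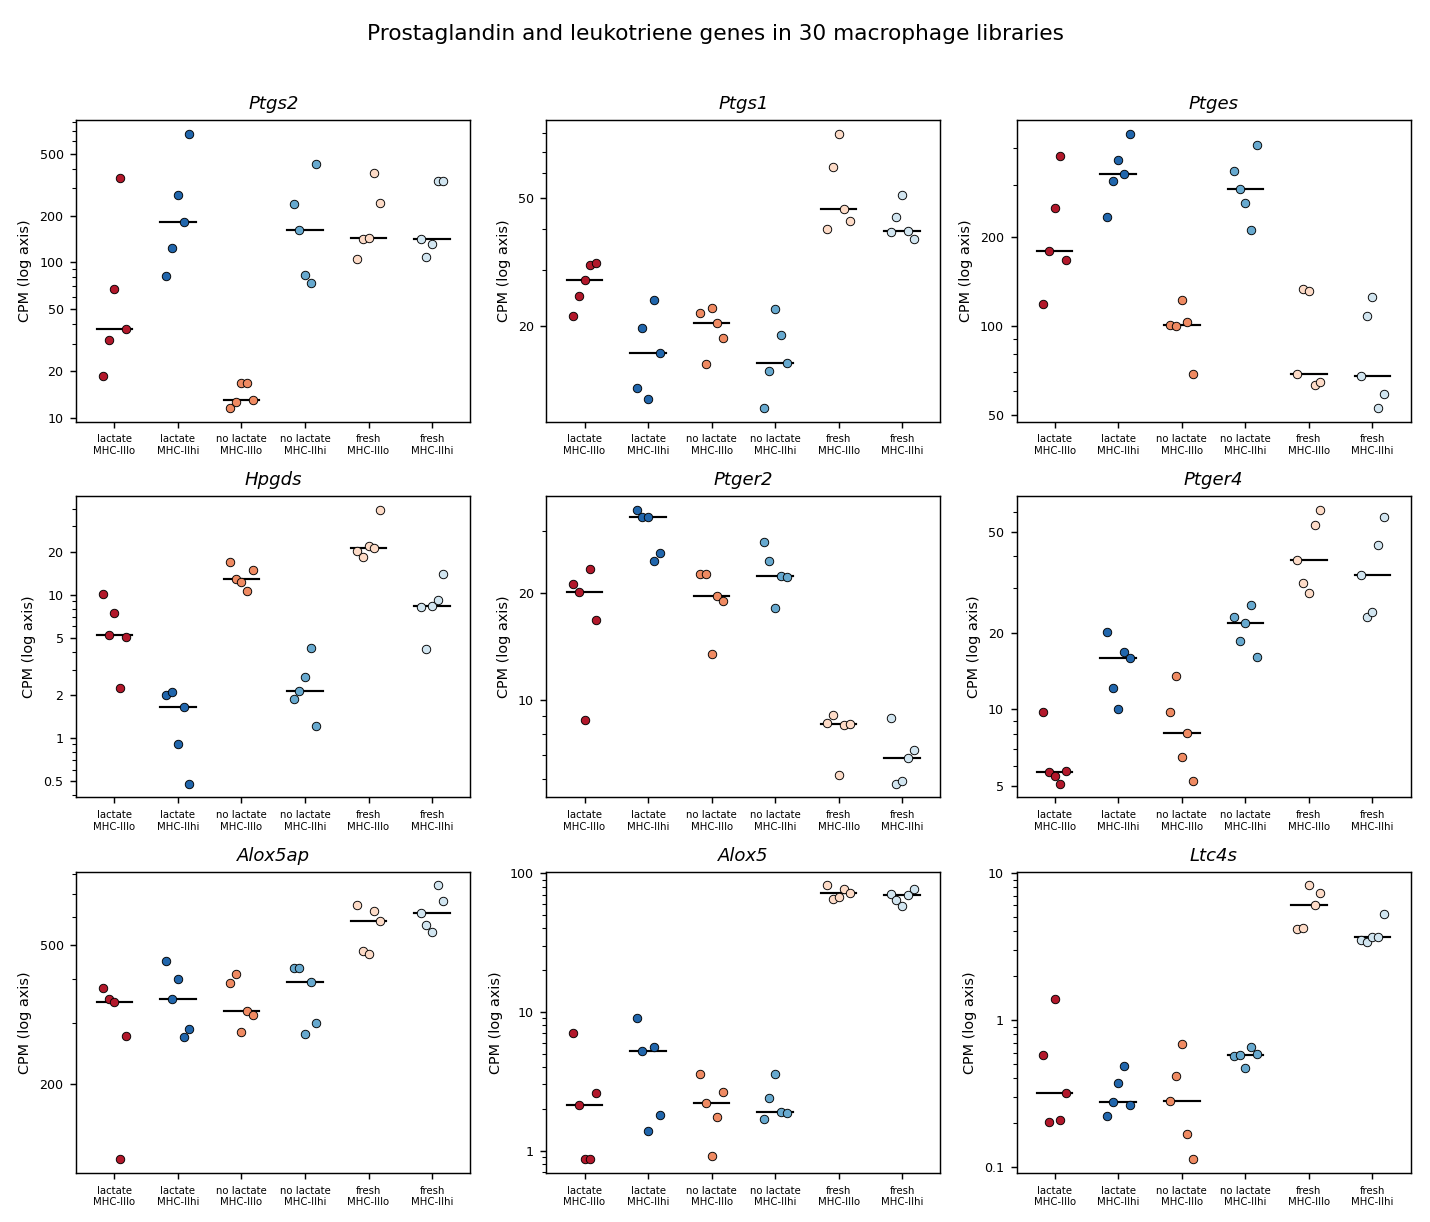
Level of each of the 9 genes in CPM (log axis) in 30 libraries, by group, where each point is 1 library and each bar the median of 5. Ptgs2 lay between 11.6 and 16.8 CPM in all 5 no-lactate MHC-IIlo libraries, and Alox5 lay below 10 CPM in all 20 cultured libraries but above 50 CPM in all 10 fresh ones.

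Ptgs2 (ENSMUSG00000032487, GRCm38 chr1:150100031-150108227, plus strand) encodes cyclooxygenase-2, the inducible enzyme of prostaglandin H2 synthesis. In culture without lactate, Ptgs2 had 11.6, 12.6, 16.6, 16.8 and 13 CPM in MHC-IIlo cells, against 238, 162, 83.4, 73.8 and 432 CPM in MHC-IIhi cells. Every MHC-IIlo library was far below every MHC-IIhi library. The log2 fold change was −3.81 ± 0.76 (SE; edgeR adjusted p = 0.000940). Fresh cells showed no such gap, with 105, 142, 143, 376 and 241 CPM in MHC-IIlo libraries 1 to 5, against 141, 108, 131, 335 and 333 CPM in MHC-IIhi libraries 1 to 5. In both fresh subsets, libraries 4 and 5 were the highest, and the groups overlapped fully. The fresh difference was −0.05 ± 0.38 (adjusted p = 0.944).

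The culture change of Ptgs2 differed between the subsets. Ptgs2 averaged 14.1 ± 2.45 CPM in no-lactate MHC-IIlo cells and 201 ± 110 CPM in fresh MHC-IIlo cells, a log2 change of −3.83 ± 0.49 (edgeR adjusted p = 7.63e-07) with no overlap. MHC-IIhi cells had 198 ± 147 CPM without lactate and 209 ± 114 CPM when fresh, a change of −0.07 ± 0.43 (adjusted p = 0.896). The difference between those changes, MHC-IIlo minus MHC-IIhi, was −3.76 ± 0.63 (adjusted p = 0.000374).

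With lactate, Ptgs2 had 18.5, 31.8, 67.4, 350 and 37.2 CPM in MHC-IIlo libraries 1, 3, 4, 5 and 6, against 11.6 to 16.8 CPM in no-lactate MHC-IIlo cells. All 5 lactate libraries lay above all 5 no-lactate ones, but library 5 alone was more than 5 times any other. The log2 difference of 2.84 ± 0.73 did not pass (edgeR adjusted p = 0.0518). It passed with no filter on low counts (adjusted p = 0.0388), with all 30 libraries in 1 fit (0.0191) and with DESeq2 (0.00626). It also passed without lactate MHC-IIlo 1 (3.11, 0.0177) and without no-lactate MHC-IIhi 7, lactate MHC-IIhi 1 or lactate MHC-IIhi 6 (adjusted p 0.0424 to 0.0479). Without lactate MHC-IIlo 5 the difference was 1.46 (edgeR adjusted p = 0.199). In MHC-IIhi cells Ptgs2 averaged 266 ± 236 CPM with lactate and 198 ± 147 CPM without, a difference of 0.43 ± 0.67 (adjusted p = 0.889). The difference between the lactate effects was 2.41 ± 0.97 and did not pass (unadjusted p = 0.0219, edgeR adjusted p = 0.661).

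Between the lactate-treated subsets, Ptgs2 averaged 101 ± 140 CPM in MHC-IIlo cells and 266 ± 236 CPM in MHC-IIhi cells. The log2 difference was −1.40 ± 0.68 (edgeR adjusted p = 0.155), and without lactate MHC-IIlo 5 it was −2.78 (adjusted p = 0.00141). By mean level the 6 groups ran from lactate MHC-IIhi through fresh MHC-IIhi, fresh MHC-IIlo and no-lactate MHC-IIhi to lactate MHC-IIlo and no-lactate MHC-IIlo. The first 4 lay within 1 SD of each other, and the last group alone overlapped no other.

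Ptgs1 (ENSMUSG00000047250, chr2:36230426-36252272, plus strand) encodes cyclooxygenase-1, the constitutive enzyme, and was lower after culture in both subsets. It averaged 19.7 ± 3.02 CPM in no-lactate MHC-IIlo cells and 54.2 ± 16.6 CPM in fresh MHC-IIlo cells, a log2 change of −1.45 ± 0.19 (edgeR adjusted p = 8.65e-07). In MHC-IIhi cells the levels were 16.4 ± 4.36 CPM without lactate and 42.2 ± 5.56 CPM when fresh, a change of −1.35 ± 0.19 (adjusted p = 2.09e-06). Fresh and cultured libraries did not overlap in either subset, and the difference between the changes was −0.10 ± 0.26 (adjusted p = 0.851).

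Ptgs1 was also higher in MHC-IIlo than in MHC-IIhi cells under lactate. It had 21.5, 24.8, 27.9, 30.9 and 31.5 CPM in lactate MHC-IIlo libraries, against 12.8, 19.7, 11.8, 24.1 and 16.5 CPM in lactate MHC-IIhi libraries. The groups overlapped through 1 MHC-IIhi library, and the log2 fold change was 0.68 ± 0.20 (edgeR adjusted p = 0.0155). Without lactate the difference was 0.27 ± 0.19 (adjusted p = 0.374). In fresh cells it was 0.36 ± 0.18 (adjusted p = 0.163), and with the replicate number as a block it passed at 0.33 (adjusted p = 0.00617).

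Ptges (ENSMUSG00000050737, chr2:30889471-30929863, minus strand) encodes microsomal prostaglandin E synthase-1, which works downstream of cyclooxygenase-2. Without lactate it had 100.4, 100.01, 123, 103 and 68.9 CPM in MHC-IIlo cells, against 333, 291, 261, 212 and 410 CPM in MHC-IIhi cells. The groups did not overlap, and the log2 fold change was −1.61 ± 0.26 (edgeR adjusted p = 9.13e-05). Fresh levels were 92.0 ± 36.6 CPM for MHC-IIlo and 82.5 ± 32.2 CPM for MHC-IIhi cells, a difference of 0.16 ± 0.30 (adjusted p = 0.752). Libraries 2 and 3 were the highest in both fresh subsets.

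Ptges was higher after culture in MHC-IIhi cells, with 302 ± 75.2 CPM without lactate and 82.5 ± 32.2 CPM when fresh, a log2 change of 1.88 ± 0.26 (edgeR adjusted p = 2.56e-06). In MHC-IIlo cells the levels were 98.9 ± 19.2 CPM without lactate and 92.0 ± 36.6 CPM when fresh, a change of 0.11 ± 0.26 (adjusted p = 0.733). The difference between the changes, MHC-IIlo minus MHC-IIhi, was −1.77 ± 0.37 (adjusted p = 0.00224). Ptgs2 and Ptges were thus both lower in no-lactate MHC-IIlo than in no-lactate MHC-IIhi cells, while against fresh cells Ptgs2 fell in MHC-IIlo and Ptges rose in MHC-IIhi.

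Ptges was the 1 member called for lactate. In MHC-IIlo cells it had 119, 180, 251, 376 and 167 CPM with lactate, against 100.4, 100.01, 123, 103 and 68.9 CPM without. The lowest lactate library lay just below the highest no-lactate library, and the log2 fold change was 1.14 ± 0.25 (edgeR adjusted p = 0.0281). The call was lost without lactate MHC-IIlo 5 (0.87, adjusted p = 0.0574) or 4 (adjusted p = 0.0666), and without no-lactate MHC-IIlo 1, 3, 5 or 6 (adjusted p 0.0652 to 0.0811). On the deposited FPKM values it was lost as well (adjusted p 0.0739 to 0.0862). In MHC-IIhi cells the levels were 336 ± 77.7 CPM with lactate and 302 ± 75.2 CPM without, a difference of 0.16 ± 0.25 (adjusted p = 0.885). The difference between the lactate effects was 0.98 ± 0.35 and did not pass (unadjusted p = 0.0114, adjusted p = 0.630). Between lactate-treated MHC-IIlo and MHC-IIhi cells Ptges differed by −0.63 ± 0.25 (adjusted p = 0.0772), and without lactate MHC-IIlo 5 by −0.90 (adjusted p = 0.00491); without lactate MHC-IIhi 1 the adjusted p was 0.0484. Neutrophil markers moved with lactate too. The sum of 10 was 396 to 1593 CPM with lactate and 689 to 978 CPM without in MHC-IIlo cells, with lactate MHC-IIlo 5 the lowest. In MHC-IIhi cells the sum was 1547 to 2262 CPM with lactate and 668 to 993 CPM without. Nearly all of it was Mmp8, S100a8 was the other marker averaging above 1 CPM in the cultured groups, and in lactate MHC-IIlo cells Camp, Elane, Ltf, Ly6g and Ngp were at 0. The part of these transcripts in the lactate result was not tested.

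Hpgds (ENSMUSG00000029919, chr6:65117293-65144908, minus strand) encodes hematopoietic prostaglandin D synthase and was the member that was higher in MHC-IIlo cells in every setting. In fresh cells it had 20.2, 18.4, 21.8, 21.3 and 39.3 CPM in MHC-IIlo libraries 1 to 5, against 8.24, 4.15, 8.37, 9.2 and 13.9 CPM in MHC-IIhi libraries 1 to 5. The groups did not overlap, and the log2 fold change was 1.46 ± 0.28 (edgeR adjusted p = 0.00149). Without lactate it had 17, 12.9, 12.2, 10.5 and 14.8 CPM in MHC-IIlo cells, against 1.86, 2.11, 2.66, 4.25 and 1.2 CPM in MHC-IIhi cells. That gap was 2.50 ± 0.38 (adjusted p = 5.06e-05). With lactate it had 10.2, 5.25, 7.5, 2.21 and 5.08 CPM in MHC-IIlo cells, against 1.99, 2.09, 0.908, 1.63 and 0.478 CPM in MHC-IIhi cells, a fold change of 2.06 ± 0.39 (adjusted p = 0.000601). The groups were separate in both culture conditions, with lactate MHC-IIlo 5 just above the highest MHC-IIhi library.

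Hpgds was lower after culture, by −0.84 ± 0.28 on the log2 scale in MHC-IIlo cells (13.5 ± 2.49 CPM without lactate and 24.2 ± 8.54 CPM when fresh; edgeR adjusted p = 0.0128). That call was lost without fresh MHC-IIlo 5 (−0.59, adjusted p = 0.0661). In MHC-IIhi cells the change was −1.88 ± 0.31 (2.41 ± 1.15 CPM without lactate and 8.78 ± 3.49 CPM when fresh; adjusted p = 1.83e-05), and the difference between the changes was 1.04 ± 0.41 (adjusted p = 0.0988), which passed without fresh MHC-IIhi 2, fresh MHC-IIlo 5 or no-lactate MHC-IIhi 6 (adjusted p 0.0275 to 0.0376). With lactate, MHC-IIlo cells had 6.04 ± 2.98 CPM, against 13.5 ± 2.49 CPM without. No lactate library reached the lowest no-lactate library, yet the difference of −1.16 ± 0.36 did not pass (adjusted p = 0.0925). It passed with DESeq2 (adjusted p = 0.0366), on log2(FPKM + 1) (0.0242) and without lactate MHC-IIlo 1 (−1.43, 0.0286). Without lactate MHC-IIlo 5, which had the lowest level of the group, the difference was −0.94 (edgeR adjusted p = 0.164).

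Mast cells also make prostaglandin D2 and cysteinyl leukotrienes, and 10 mast cell and basophil markers were therefore summed. The sum was 2.00 to 4.86 CPM in lactate MHC-IIlo and 9.18 to 22.4 CPM in lactate MHC-IIhi libraries, and 2.80 to 5.05 CPM in no-lactate MHC-IIlo and 10.2 to 29.5 CPM in no-lactate MHC-IIhi libraries. In fresh cells it was 6.93 to 12.5 CPM in MHC-IIlo and 6.82 to 14.2 CPM in MHC-IIhi. At most 2 of the 10 genes, Hdc and Kit, averaged above 1 CPM in any group, and Fcer1a was at 0 in fresh MHC-IIlo, no-lactate MHC-IIlo, no-lactate MHC-IIhi and lactate MHC-IIhi cells. The part of these transcripts in the Hpgds differences was not tested.

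Markers of dendritic cells moved with the subset. The sum of 6 markers was 0.845 to 1.15 CPM in lactate MHC-IIlo and 92.7 to 269 CPM in lactate MHC-IIhi libraries, and 0.502 to 4.21 CPM in no-lactate MHC-IIlo and 92.0 to 274 CPM in no-lactate MHC-IIhi libraries. In fresh cells it was 1.54 to 3.95 CPM in MHC-IIlo and 13.4 to 32.0 CPM in MHC-IIhi. None of the 6 averaged above 1 CPM in any MHC-IIlo group, and Xcr1 was at 0 in fresh MHC-IIlo cells. In fresh cells the epithelial or tumour cell sum was also lower in MHC-IIlo, at 138 to 281 CPM, against 507 to 580 CPM in MHC-IIhi libraries, and so was the sum of 4 B cell markers, at 0.106 to 2.1 CPM, against 8.69 to 17.4 CPM. In cultured MHC-IIhi cells the dendritic cell sum was mostly Ccr7, with 125 CPM under lactate and 146 CPM without. The part of these markers in the subset differences of Ptgs2, Ptges, Hpgds and the receptors was not tested.

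Ptger2 (ENSMUSG00000037759, chr14:44988195-45003820, plus strand) and Ptger4 (ENSMUSG00000039942, chr15:5206661-5244187, minus strand) encode EP2 and EP4, the receptors for prostaglandin E2 that raise cyclic AMP. After culture their levels differed from fresh cells in opposite directions. Ptger2 averaged 19.5 ± 3.75 CPM in no-lactate MHC-IIlo cells and 8.19 ± 1.16 CPM in fresh MHC-IIlo cells, a log2 change of 1.26 ± 0.15 (edgeR adjusted p = 4.34e-07). In MHC-IIhi cells it averaged 23.1 ± 3.56 CPM without lactate and 6.94 ± 1.25 CPM when fresh, a change of 1.74 ± 0.16 (adjusted p = 3.50e-09). All 10 cultured libraries without lactate lay above all 10 fresh ones. The difference between the changes was −0.48 ± 0.22 (adjusted p = 0.153).

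Ptger4 was lower after culture. In MHC-IIlo cells it had 9.77, 13.5, 6.47, 8.07 and 5.23 CPM without lactate, against 38.6, 31.4, 28.8, 53.1 and 61.0 CPM when fresh. The groups lay well apart, with a log2 change of −2.30 ± 0.28 (edgeR adjusted p = 4.08e-07). In MHC-IIhi cells it averaged 21.1 ± 3.82 CPM without lactate and 36.4 ± 14.4 CPM when fresh, a change of −0.79 ± 0.27 (adjusted p = 0.0138) that was lost without fresh MHC-IIhi 5 (−0.56, adjusted p = 0.0666). The difference between the changes was −1.51 ± 0.38 (adjusted p = 0.00971).

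Ptger4 was lower in MHC-IIlo than in MHC-IIhi cells in both culture conditions. With lactate MHC-IIlo cells averaged 6.34 ± 1.94 CPM, against 15 ± 4.00 CPM for MHC-IIhi cells, a log2 fold change of −1.25 ± 0.24 (edgeR adjusted p = 0.000818). Without lactate MHC-IIlo cells averaged 8.61 ± 3.23 CPM, against 21.1 ± 3.82 CPM for MHC-IIhi cells, a fold change of −1.28 ± 0.24 (adjusted p = 0.000530). Neither pair of groups overlapped. In fresh cells the difference was 0.23 ± 0.26 (adjusted p = 0.578), and with the replicate number as a block it passed at 0.25 (adjusted p = 0.0110). The gene shares its 3′ part with Ttc33 on the other strand, and no strand setting is given in the sources used here. Ttc33 moved the other way, by 0.42 ± 0.12 between no-lactate MHC-IIlo and MHC-IIhi cells (edgeR adjusted p = 0.0163) and by 0.52 ± 0.08 with culture in MHC-IIlo cells (adjusted p = 1.48e-05). Between lactate subsets Ttc33 did not pass (0.24 ± 0.12, adjusted p = 0.174). Nor did it pass with culture in MHC-IIhi cells (0.14 ± 0.08, adjusted p = 0.148). The part of the overlap in the Ptger4 results was not tested.

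Ptger2 differed between the subsets under lactate, with 21.3, 20.1, 8.80, 23.3 and 16.8 CPM in MHC-IIlo cells, against 34.4, 32.8, 32.8, 24.7 and 25.9 CPM in MHC-IIhi cells. The groups did not overlap, and the log2 fold change was −0.74 ± 0.20 (edgeR adjusted p = 0.0111). Without lactate the difference was −0.24 ± 0.20 (adjusted p = 0.448) and in fresh cells 0.24 ± 0.16 (adjusted p = 0.291). Lactate itself gave −0.10 ± 0.20 in MHC-IIlo and 0.39 ± 0.20 in MHC-IIhi cells, neither of which passed (adjusted p = 0.822 and 0.529).

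**Figure D2:**
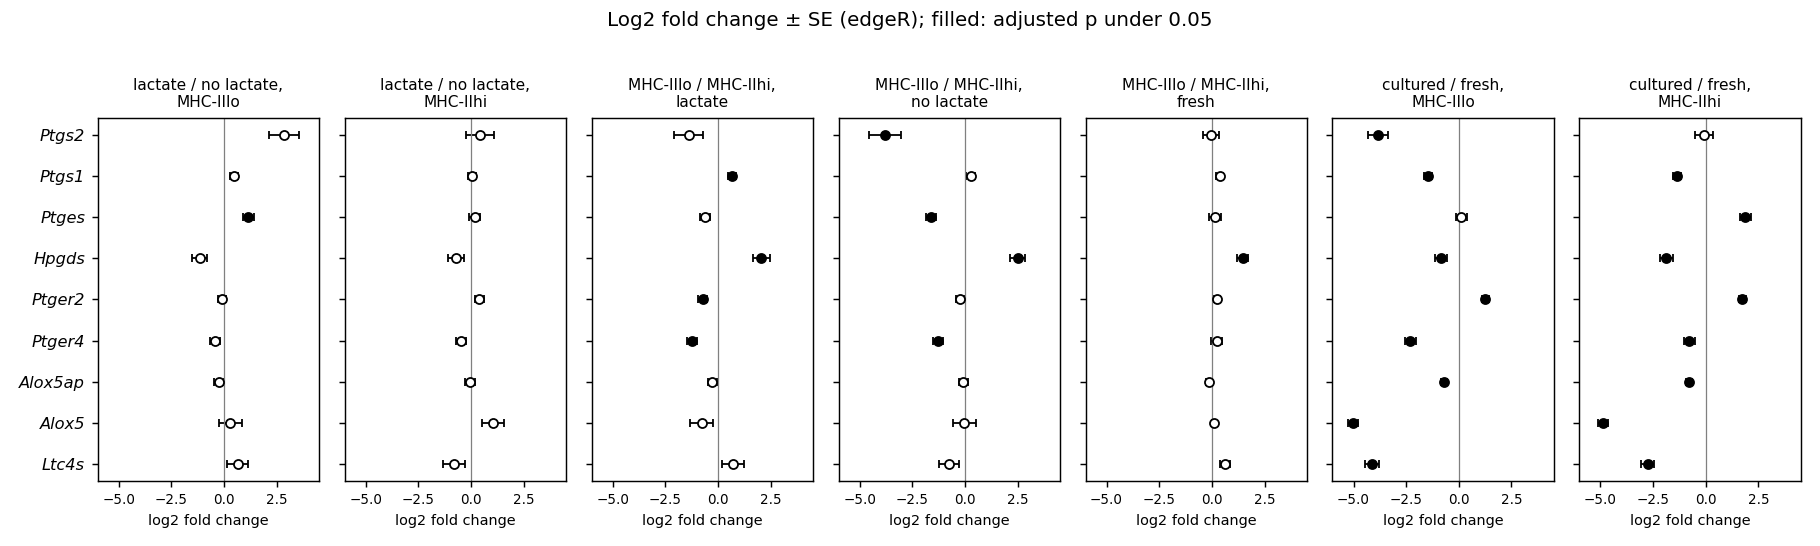
Log2 fold change ± SE of the 9 genes in 7 comparisons, with filled points where the edgeR adjusted p was under 0.05. The largest changes in this edgeR fit were those of Alox5 with culture, −5.02 in MHC-IIlo and −4.89 in MHC-IIhi cells, while under lactate the 1 filled point is Ptges in MHC-IIlo cells at 1.14.

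Alox5 (ENSMUSG00000025701, chr6:116410077-116461178, minus strand) encodes 5-lipoxygenase, which makes leukotriene A4, and in the edgeR fit it had the largest culture change of the members in both subsets. On log2(FPKM + 1), which shrinks changes of low genes, it changed by −3.28 in MHC-IIlo cells, less than Ptgs2 at −3.66. In MHC-IIlo cells it had 3.57, 2.20, 0.914, 1.76 and 2.63 CPM without lactate, against 82.0, 65.1, 67.1, 76.8 and 72.4 CPM when fresh. In MHC-IIhi cells it had 1.68, 2.39, 3.56, 1.91 and 1.86 CPM without lactate, against 70.5, 64.5, 58.0, 70.2 and 77.6 CPM when fresh. No cultured library overlapped a fresh one. The log2 changes were −5.02 ± 0.23 in MHC-IIlo (edgeR adjusted p = 1.31e-13) and −4.89 ± 0.23 in MHC-IIhi cells (adjusted p = 1.63e-13), with a difference of −0.12 ± 0.31 (adjusted p = 0.844).

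Marker sums of several cell types moved with culture as well. The macrophage sum was 6036 to 8466 CPM in no-lactate MHC-IIlo and 11027 to 14612 CPM in fresh MHC-IIlo libraries, and 5170 to 8118 CPM in no-lactate MHC-IIhi and 8158 to 11590 CPM in fresh MHC-IIhi libraries. The sum of 4 endothelial markers was 274 to 369 CPM in no-lactate MHC-IIlo and 92.5 to 115 CPM in fresh MHC-IIlo libraries, and 315 to 648 CPM in no-lactate MHC-IIhi and 91.8 to 129 CPM in fresh MHC-IIhi libraries. It was mostly Kdr in culture and Pecam1 in fresh cells, with Cdh5 also above 1 CPM and Tek near 0. The sum of 5 epithelial or tumour cell markers was 43.5 to 60.0 CPM in no-lactate MHC-IIlo and 138 to 281 CPM in fresh MHC-IIlo libraries, and 38.6 to 84.3 CPM in no-lactate MHC-IIhi and 507 to 580 CPM in fresh MHC-IIhi libraries. It was mostly Cdh1 and Krt8, and Epcam averaged at most 1.63 CPM in any group. The part of these transcripts in the culture changes of the 9 genes was not tested.

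The fresh groups overlapped in Alox5, which averaged 72.7 ± 6.96 CPM in fresh MHC-IIlo libraries, against 68.2 ± 7.33 CPM in fresh MHC-IIhi libraries (log2 difference 0.09 ± 0.08, edgeR adjusted p = 0.434). Under lactate Alox5 had 7.07, 2.13, 0.866, 0.877 and 2.60 CPM in MHC-IIlo cells and 8.99, 5.25, 1.39, 5.6 and 1.81 CPM in MHC-IIhi cells. Library 1 was the highest in both. Between lactate and no lactate the differences were 0.29 ± 0.54 in MHC-IIlo (adjusted p = 0.819) and 1.03 ± 0.54 in MHC-IIhi cells (adjusted p = 0.545). The lactate subsets differed by −0.78 ± 0.53 (adjusted p = 0.320), and without lactate MHC-IIlo 1 by −1.51 (adjusted p = 0.0354).

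Alox5ap (ENSMUSG00000060063, chr5:149264767-149288153, plus strand) encodes FLAP, the membrane protein that presents arachidonic acid to 5-lipoxygenase, and fell far less than Alox5. It averaged 345 ± 54.7 CPM in no-lactate MHC-IIlo cells and 563 ± 82.1 CPM in fresh MHC-IIlo cells, a log2 change of −0.70 ± 0.14 (edgeR adjusted p = 0.000207). MHC-IIhi cells had 366 ± 72.9 CPM without lactate and 628 ± 78.5 CPM when fresh, a change of −0.77 ± 0.14 (adjusted p = 6.01e-05). Fresh and cultured libraries did not overlap in either subset. In lactate MHC-IIlo 5 it had 122 CPM, against 274 to 376 CPM in the other 4 libraries of that group. No subset or lactate difference passed without a block, and in fresh cells the block on the replicate number gave −0.16 (adjusted p = 0.0402).

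Ltc4s (ENSMUSG00000020377, chr11:50236469-50238616, minus strand) encodes leukotriene C4 synthase, the first enzyme of the cysteinyl leukotriene branch, and it was close to the floor in culture. Fresh cells had 4.16, 4.2, 8.23, 6.06 and 7.26 CPM in MHC-IIlo libraries 1 to 5, against 3.49, 3.38, 3.69, 3.68 and 5.22 CPM in MHC-IIhi libraries 1 to 5. The groups overlapped through MHC-IIhi library 5. The log2 difference of 0.63 ± 0.23 did not pass (edgeR adjusted p = 0.0570), and with the block on the replicate number it passed at 0.60 (adjusted p = 0.0170), as it did with DESeq2 (0.0322) and without fresh MHC-IIhi 5, fresh MHC-IIlo 1 or fresh MHC-IIlo 2 (0.0307 to 0.0339).

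In culture Ltc4s had 3 to 29 reads per library. It averaged 0.333 ± 0.229 CPM in no-lactate MHC-IIlo cells and 5.98 ± 1.82 CPM in fresh MHC-IIlo cells, a log2 change of −4.14 ± 0.34 (edgeR adjusted p = 9.20e-10). MHC-IIhi cells had 0.571 ± 0.066 CPM without lactate and 3.89 ± 0.756 CPM when fresh, a change of −2.75 ± 0.32 (adjusted p = 1.47e-07). The difference between the changes was −1.38 ± 0.45 (adjusted p = 0.0445), a call lost with no filter on low counts (0.0668), with all 30 libraries in 1 fit (0.120) and on FPKM (0.0936 to 0.129), and without any 1 of 14 of the 20 libraries (0.0626 to 0.0856). Between subsets in culture Ltc4s differed by 0.70 ± 0.52 with lactate (adjusted p = 0.360) and by −0.76 ± 0.49 without (adjusted p = 0.312), and neither difference passed.

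Groups that did not overlap were counted as well, beside the share of all tested genes in that state. With lactate against without, 2 members did not overlap in MHC-IIlo cells, Ptgs2 higher and Hpgds lower, against 5.64% of genes, and 0 in MHC-IIhi cells, against 1.95%. In MHC-IIlo against MHC-IIhi cells, 3 members did not overlap with lactate (12.8% of genes), 4 without lactate (18.9%) and 1 when fresh (21.3%). Culture without lactate against fresh left 8 members without overlap in MHC-IIlo (45.1% of genes) and 6 in MHC-IIhi cells (44.2%). For the difference between the culture changes, 4 members were called, all lower, where 14.3% of all genes were called (6.03% higher and 8.27% lower).

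For the difference between the lactate effects 0 of 9 members and 0 of 13593 genes passed in edgeR, while 2 members and 1018 genes had an unadjusted p under 0.05. DESeq2 called 2 genes there. In MHC-IIhi cells, where 0 members passed with lactate, 0 members had an unadjusted edgeR p under 0.05 either, and DESeq2 called 0.

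Per length, as TPM (counts divided by gene length and scaled to the library), Alox5ap had the highest level of the 9 genes in each group, with 546 ± 139 TPM in lactate MHC-IIlo and 1234 ± 66.0 TPM in fresh MHC-IIhi cells as the lowest and highest group means. Pairs of enzymes were then compared within each library as TPM ratios, as a description without a test. Ptgs2 over Ptgs1 was 0.729 to 9.61 in lactate MHC-IIlo (median 1.08) and 5.35 to 34.4 in lactate MHC-IIhi libraries (median 6.43). Without lactate it was 0.446 to 0.700 in MHC-IIlo (median 0.622) and 3.14 to 23.9 in MHC-IIhi libraries (median 9.47). All 5 no-lactate MHC-IIlo libraries thus had less Ptgs2 than Ptgs1, which no library of the fresh or MHC-IIhi groups had. Fresh libraries had ratios of 1.52 to 6.88 in MHC-IIlo and 2.1 to 7.54 in MHC-IIhi.

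Ptges over Hpgds sets the prostaglandin E2 synthase against the prostaglandin D2 synthase. It was 19 to 277 in lactate MHC-IIlo (median 54.7) and 192 to 1525 in lactate MHC-IIhi libraries (median 327). Without lactate it was 7.61 to 16.4 in MHC-IIlo (median 12.7) and 81.5 to 557 in MHC-IIhi libraries (median 226). Fresh cells had 2.67 to 11.8 in MHC-IIlo (median 5.58) and 6.92 to 42.4 in MHC-IIhi (median 13.4). Hpgds had 9 to 54 reads per library in lactate MHC-IIhi and 35 to 91 in no-lactate MHC-IIhi cells, so the highest ratios rest on few reads. The Ptges to Hpgds ratio of every lactate MHC-IIlo library was above that of every no-lactate MHC-IIlo library, with library 5 the highest at 277. Ltc4s over Lta4h, the enzymes that take leukotriene A4 to the cysteinyl leukotrienes or to leukotriene B4, was 0.00593 to 0.0652 in the cultured libraries. It was 0.123 to 0.248 in fresh MHC-IIlo and 0.0658 to 0.109 in fresh MHC-IIhi libraries, which did not overlap.

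**Figure D3:**
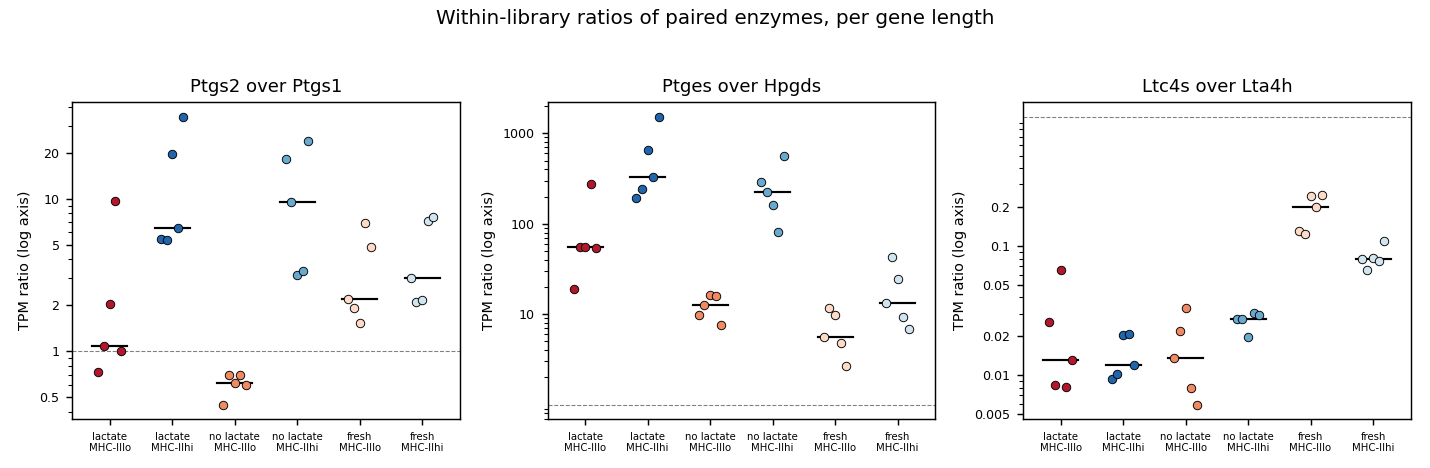
TPM ratios of 3 enzyme pairs within each of 30 libraries (log axis), where points are libraries, bars medians of 5 and the dashed line a ratio of 1. The Ptgs2 to Ptgs1 ratio lay between 0.446 and 0.700 in no-lactate MHC-IIlo libraries, and the Ptges to Hpgds ratio lay between 19 and 277 with lactate in MHC-IIlo, against 7.61 to 16.4 without.

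Another 50 genes of arachidonate release, prostanoid synthesis, transport, breakdown and reception, and leukotriene handling were examined, of which 28 to 30 could be tested. In MHC-IIlo against MHC-IIhi cells, 5 rose and 8 fell of 28 with lactate, 4 rose and 8 fell of 28 without lactate, and 6 rose and 9 fell of 29 when fresh. Of all genes, 22.4%, 20.8% and 29.2% were called in that order. Their median log2 fold changes were −0.12, −0.28 and −0.02 in that order, against 0.02, −0.01 and −0.00 over all genes tested. Of the 8 leukotriene enzymes, exporters and receptors tested, 5 were lower with lactate, 4 without and 6 when fresh. Of all genes, 13.3%, 11.6% and 15.2% were lower in that order. Cyp4f18, the enzyme that inactivates leukotriene B4 in mouse neutrophils, was lower in all 3 settings. It fell by 2.22 with lactate, by 2.71 without and by 1.92 when fresh on the log2 scale, with 32.7 ± 5.17 CPM in fresh MHC-IIlo and 124 ± 12.7 CPM in fresh MHC-IIhi cells. The neutrophil marker sum was 396 to 1593 CPM in MHC-IIlo and 1547 to 2262 CPM in MHC-IIhi libraries with lactate, and 689 to 978 CPM in MHC-IIlo and 668 to 993 CPM in MHC-IIhi libraries without it. When fresh it was 346 to 618 CPM in MHC-IIlo and 127 to 238 CPM in MHC-IIhi libraries, and its part in the Cyp4f18 differences was not tested. Dpep2, a dipeptidase that turns leukotriene D4 into leukotriene E4, was lower by −0.92 ± 0.06 in fresh MHC-IIlo cells (edgeR adjusted p = 4.93e-07).

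Among the phospholipases, Pla2g4a, the cytosolic enzyme that releases arachidonic acid, was lower in cultured MHC-IIlo than MHC-IIhi cells, with 29.7 ± 1.41 CPM, against 65.0 ± 11 CPM for MHC-IIhi cells, without lactate (−1.12 ± 0.13, edgeR adjusted p = 1.76e-06). With lactate the fold change was −0.85 ± 0.13 (adjusted p = 4.92e-05). Secreted Pla2g2e was higher, by 2.46 ± 0.29 without lactate and 2.07 ± 0.30 with it (adjusted p = 3.38e-06 and 3.52e-05). Lysosomal Pla2g15 was higher in fresh MHC-IIlo cells by 0.93 ± 0.10 (adjusted p = 2.47e-05) and without lactate by 1.34 ± 0.26 (adjusted p = 0.000754). Fam213b, a prostaglandin F synthase, rose by 0.68 ± 0.15 in fresh MHC-IIlo cells (adjusted p = 0.00461, and 0.0587 with all 30 libraries in 1 fit), and Cbr1, a carbonyl reductase that converts prostaglandin E2, was higher by 0.78 ± 0.18 under lactate (adjusted p = 0.00329).

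Of 28 pathway genes, 1 was called for lactate in each subset, where 1.49% of all genes were called in MHC-IIlo and 0.25% in MHC-IIhi cells. In MHC-IIlo cells Pla2g4a had 42.4 ± 4.81 CPM with lactate and 29.7 ± 1.41 CPM without, a log2 fold change of 0.52 ± 0.13 (edgeR adjusted p = 0.0455). In MHC-IIhi cells Abcc1, an exporter of leukotriene C4, had 467 ± 48.7 CPM with lactate and 294 ± 49.5 CPM without, a fold change of 0.67 ± 0.13 (adjusted p = 0.0324). With libraries left out singly, the Pla2g4a call held for 6 of the 20, which were no-lactate MHC-IIhi 5, 6 and 7, lactate MHC-IIhi 1 and 6 and lactate MHC-IIlo 1. It was lost for each other library (adjusted p 0.0507 to 0.110), among them lactate MHC-IIlo 5 (0.49, adjusted p = 0.0803), and with no filter on low counts (0.0629). The Abcc1 call held for 10 of the 20 and was lost without no-lactate MHC-IIhi 4, 5 or 6, no-lactate MHC-IIlo 3, 5 or 6, or lactate MHC-IIhi 1, 3, 4 or 6 (adjusted p 0.0530 to 0.133).

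With culture, 5 of 30 pathway genes rose and 15 fell in MHC-IIlo cells, where 57.5% of all genes were called (27.6% higher and 29.9% lower). In MHC-IIhi cells 5 rose and 14 fell, where 62% were called (31.6% higher and 30.4% lower). Both directions together, the counts are near those shares, while lower calls alone are above theirs and higher calls below. Of the 9 leukotriene genes tested, 8 fell and 1 rose in MHC-IIlo cells, and 7 fell and 1 rose in MHC-IIhi cells. Ltb4r1, the high-affinity leukotriene B4 receptor, fell to 16 ± 5.89 CPM in no-lactate MHC-IIlo cells, against 124 ± 13.8 CPM in fresh MHC-IIlo cells (−2.94 ± 0.19, edgeR adjusted p = 2.09e-11). In MHC-IIhi cells it changed by −2.77 ± 0.18 (adjusted p = 3.26e-11). Lta4h, which makes leukotriene B4, fell by 1.13 in MHC-IIhi cells (adjusted p = 5.78e-12), and the change in MHC-IIlo was less negative by 0.46 ± 0.09 (adjusted p = 0.00199). Cysltr2, a cysteinyl leukotriene receptor, went the other way in MHC-IIhi cells, with 8.40 ± 1.88 CPM without lactate and 0.899 ± 0.477 CPM when fresh (3.22 ± 0.32, adjusted p = 1.56e-08). Pla2g7, which breaks down platelet-activating factor, rose by 1.64 ± 0.14 in MHC-IIlo and 2.07 ± 0.14 in MHC-IIhi cells (adjusted p = 1.22e-09 and 3.26e-11).

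The culture change differed between subsets, MHC-IIlo minus MHC-IIhi, for 4 pathway genes of 30, where 14.3% of all genes were called. Pla2g4a fell in MHC-IIlo cells by 1.39 (edgeR adjusted p = 8.48e-11), and the difference was −1.28 ± 0.14 (adjusted p = 1.74e-06). Pla2g2e rose there by 3.84 ± 0.33 (adjusted p = 2.74e-09), with a difference of 2.21 ± 0.47 (adjusted p = 0.00279). The difference of Abcc1 was −0.99 ± 0.17 (adjusted p = 0.000552).

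**Figure D4:**
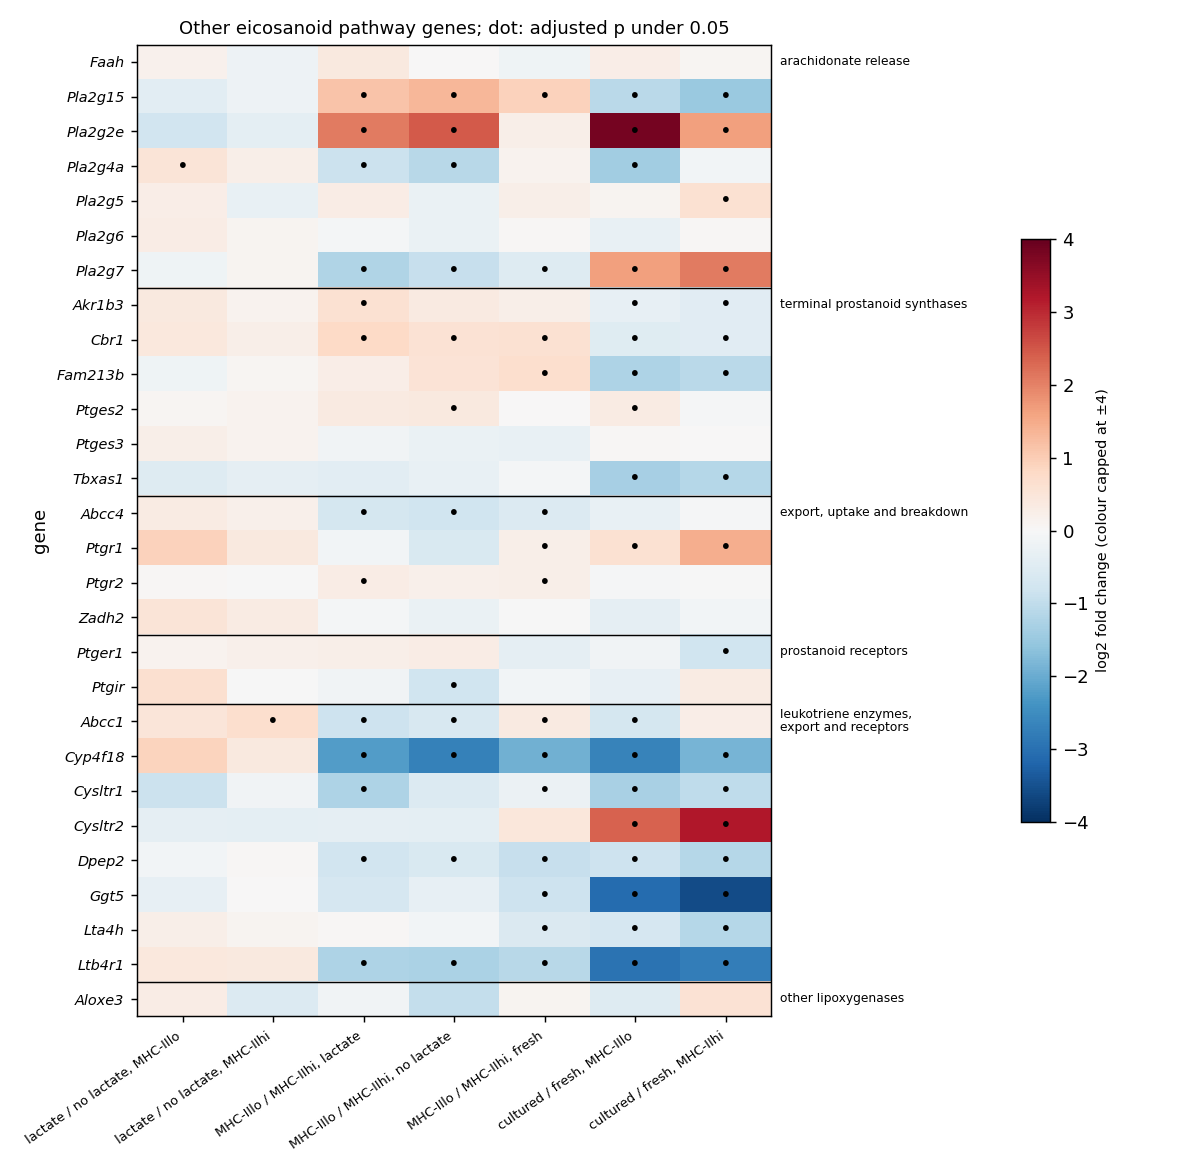
Log2 fold change (colour, capped at ±4) of the 28 other eicosanoid genes tested in all fits, in 7 comparisons, with a dot where the edgeR adjusted p was under 0.05. Cyp4f18, lower in MHC-IIlo cells in all 3 settings, and Ltb4r1, lower after culture by −2.94 in MHC-IIlo and −2.77 in MHC-IIhi cells, stand out in blue.

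For the 7 members whose group means spanned at least 2 on the log2 CPM scale, the genes with the most similar centred profile over 30 libraries were listed, by the smallest root mean square log2 difference among 8569 or 8570 genes. The libraries share their groups, so this describes likeness of pattern only. Nearest to Ptgs2 were Ddit4 (0.60), Tnfrsf9 (0.68) and Cxcl2 (0.71), and nearest to Ptges were Plod2 (0.42), Fam167a (0.43) and Frmd6 (0.44). Nearest to Hpgds were Scamp5 (0.45), Sorbs3 (0.56) and Apoe (0.56). Ptger2 was closest to Abr (0.30), Smcr8 (0.32) and Slc23a2 (0.34), and Ptger4 to Kctd12 (0.42), Lbh (0.44) and Lcp1 (0.44). Alox5 was closest to Rasgrp4 (0.68), Fos (0.73) and Zfp36 (0.86), and Ltc4s to Dusp1 (0.67), Sik1 (0.70) and Junb (0.71). Fos, Zfp36, Dusp1 and Junb are immediate-early response genes.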

How the data were processed

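RNA sequencing libraries of 30 samples, 5 in each of 6 groups, were analysed from the deposited gene tables. Raw counts per gene were made by the authors, and the submitters' processing notes name Trimmomatic, STAR, featureCounts and the GRCm38 genome; their versions and the strand setting are not given in the sources used here. A second deposited table holds FPKM values for 13778 genes. Multiplied by gene length and sorted, its values were the same in all 30 columns (relative tolerance 1e-9), and how the authors normalized it is not given in the sources used here. The cultured columns name a group and a number that is not the label's, so they were assigned to groups only. Raw reads were not used.

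Counts of 46603 genes, 25626 of them with a read, were tested in R 4.3.3 with the edgeR 4.0.16 quasi-likelihood F test (TMM, filterByExpr, 2-sided, Benjamini-Hochberg over all genes tested, called at adjusted p under 0.05). Separate fits were made for the 10 fresh, the 20 cultured and the 20 lactate-free libraries. The SE of a log2 fold change is its size divided by the root of F. CPM used TMM sizes over all 30 libraries, and TPM used the table's gene lengths. The procedure was also run on simulated counts with the same dispersion for every gene and no outlying library. That setting is unlike these data, and no result here rests on it. No 2 libraries held identical counts. Alternatives were edgeR's RLE factors, no filter, DESeq2 1.42.0, all 30 libraries in 1 fit, limma 3.58.1 on log2(FPKM + 1) and log2(FPKM + 0.1), a replicate block, and each library left out.

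All 9 members are named in every comparison. Of the other pathway genes, those named are the 2 called genes with the smallest p in each direction, averaging 2 or more on the log2 CPM scale. The members and lists were chosen with earlier results of these data known.

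Fresh replicate numbers come from the labels. Deviations of same-numbered fresh libraries from their group means correlated at 0.172 to 0.697 over 8862 genes averaging 3 or more on the log2 CPM scale, and at 0.0700 to 0.497 over all 12787 tested. Among the 5 fresh MHC-IIlo libraries, the best-correlated MHC-IIhi library had the same number for 3 over the 8862 genes and for 4 over all tested. On the first range, a block on these numbers was run as an alternative fit, although the lowest value of the second falls under 0.1. The main fit has no block, and blocked values stand beside the fresh results whose call they change.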

Additional observations from a re-analysis of the deposited data

Results flagged for a closer look

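Among 54 gene-by-group sets of 5 libraries, 6 held 1 library whose gap to its nearest neighbour, divided by the group's range, passed Dixon's critical value of 0.71. For independent, normally spread values chance gives about 1 such set in 20. These sets share libraries and were taken on CPM without a log, so the 6 cannot be weighed against that rate. Ptgs2 in lactate MHC-IIlo 5 was 350 CPM, against 18.5 to 67.4 CPM in the other 4 (gap ratio 0.852). Lactate MHC-IIlo 1 stood out for Alox5 (7.07 CPM, against 0.866 to 2.60 CPM, ratio 0.721) and for Ptger4 (9.78 CPM, against 5.09 to 5.71 CPM, ratio 0.867). In fresh MHC-IIlo cells, Hpgds was 39.3 CPM in library 5, against 18.4 to 21.8 CPM (ratio 0.837), and Ptger2 was 6.15 CPM in library 3, against 8.52 to 9.07 CPM (ratio 0.811). Ltc4s in fresh MHC-IIhi 5 was 5.22 CPM, against 3.38 to 3.69 CPM (ratio 0.832).

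The culture change, MHC-IIlo minus MHC-IIhi, differed between the subsets by the edgeR interaction test for 4 of 9 members and 4 of 30 pathway genes, where 14.3% of all genes were called. On the log2 scale the difference was −3.76 for Ptgs2, −1.77 for Ptges, −1.51 for Ptger4 and −1.38 for Ltc4s. It was −1.28 for Pla2g4a, −0.99 for Abcc1, 0.46 for Lta4h and 2.21 for Pla2g2e. The Ltc4s call held in 6 of the 20 fits with a library left out and in 2 of the 7 other alternatives.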

How the results depend on the processing

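No called log2 fold change of a member or named pathway gene changed sign under any alternative run. Fold changes that were not called did change sign: on log2(FPKM + 0.1) Alox5 was −0.12 for lactate in MHC-IIlo cells, against 0.29 on counts, and 0.06 between no-lactate subsets, against −0.04, where Alox5ap was 0.05, against −0.08. With libraries left out, Ptgs2 ran between −0.40 and 0.19 for the fresh subsets and between −0.26 and 0.93 for lactate in MHC-IIhi cells. No setting moved the median of all genes by over 0.1 on the log2 scale. For lactate in MHC-IIlo cells, 1 member was called, against 2 with no filter, 3 with DESeq2, 2 with all 30 libraries in 1 fit and 0 on log2(FPKM + 0.1). There, 1 pathway gene was called, against 0 with no filter, 3 with DESeq2, 4 in the 30-library fit and 2 in each FPKM fit. All genes called there numbered 202, against 689 with DESeq2 and 531 in the 30-library fit. For lactate in MHC-IIhi cells, 34 genes were called, against 131 with DESeq2, 53 in the 30-library fit and 59 on unfiltered log2(FPKM + 1). For the difference of the lactate effect 0 genes were called, against 2 with DESeq2 and 1 in the 30-library fit. DESeq2 called 2 members between fresh subsets, against 1. For the difference of the culture effect, 4 pathway genes were called, against 8 on log2(FPKM + 1) with or without a filter and 7 on log2(FPKM + 0.1). The cause of these shifts was not tested.

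On log2(FPKM + 1) the all-gene split of higher and lower calls turned, between no-lactate MHC-IIlo and MHC-IIhi to 1595 higher and 1154 lower, against 1250 and 1580 on counts. Between lactate subsets it was 1794 and 1334, against 1241 and 1804. For the difference of the culture effect it was 1211 and 988, against 825 and 1132.

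With a replicate block on the label number, 5 members were called between fresh subsets, against 1; it changed no other fresh call of a member. Cultured libraries with the same header number mostly also have adjoining last indices in their headers. No label says what either number marks, and deviations of same-numbered libraries correlated at −0.590 to 0.705. No-lactate MHC-IIhi 7 shares its number with no other library. With a replicate block on them, lactate in MHC-IIlo cells gave 2 members, 7 pathway genes and 1111 genes, lactate in MHC-IIhi cells gave 81 genes, and the difference of the lactate effect gave 2 genes. With that block 2 members passed that did not without it, Hpgds for lactate in MHC-IIlo cells (−1.22, edgeR adjusted p = 0.0290) and Ptges between lactate subsets (−0.70, adjusted p = 0.0235). No paired analysis was possible for culture against fresh because header and label numbers do not name the same samples.

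With each library left out, members called were 0 to 3 for lactate in MHC-IIlo cells, 1 to 2 between fresh subsets, 4 to 6 between lactate subsets and 3 to 4 for the difference of the culture effect. Pathway genes called were 0 to 3 for lactate in MHC-IIlo cells, 0 to 1 in MHC-IIhi cells and 4 to 7 for the difference of the culture effect. All genes called were 53 to 758 for lactate in MHC-IIlo cells, 8 to 54 in MHC-IIhi cells and 0 to 8 for the difference of the lactate effect. The lowest and highest for MHC-IIlo came without no-lactate MHC-IIlo 6 and without lactate MHC-IIlo 1. Between fresh subsets 3221 to 3667 genes were called, between lactate subsets 2441 to 3485, and for the difference of the culture effect 1645 to 2058. Without lactate MHC-IIlo 5, 6 members and 3485 genes were called between lactate subsets, against 4 and 3045 in the main fit. Ltc4s had 3 to 29 reads per library in culture, and the part of depth in its results was not tested.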
